A study of Mus musculus with 2 samples.

Results

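The miR-130 and miR-301 family is a group of microRNAs that begin with the same bases, made in the mouse from the hairpins Mir130a, Mir130b, Mir301 (which gives miR-301a) and Mir301b. It was followed here through 5 of the 1909 mature microRNAs listed for cultured aortic smooth muscle cells, taken by name. They are the 3p strands mmu-miR-130a-3p, mmu-miR-130b-3p, mmu-miR-301a-3p and mmu-miR-301b-3p, and the 5p strand mmu-miR-130b-5p, written here without the species prefix. All 5 were detected in both libraries, and 3 reached 50 counts in at least 1 of them. The diabetic library came from cells of type 2 diabetic db/db mice, with the background given as BKS.Cg-m+/+Leprdb/J, and the control library from db/+ mice, given as Lepr+/-. The db/db mouse has no normal copy of the leptin receptor gene and becomes obese and diabetic, while the db/+ mouse keeps 1 normal copy. Cells of both groups were taken from the thoracic aorta of males at 10 to 12 weeks of age and were cultured in DMEM/F-12 medium with 10% fetal bovine serum, so the values describe cells in culture. There was 1 small RNA library per group. The number of mice or cultures behind each one is not given in the sources used here.

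A microRNA hairpin is cut into a short duplex, and a strand of it is loaded into an Argonaute protein and guides it to messenger RNAs. Bases 2 to 8, the seed, decide most of the targets, so strands with the same seed are expected to share them. The family is known for repressing the nuclear receptor PPARγ and, in smooth muscle, the growth-restraining homeobox gene Gax (Meox2), and it has been described as driving proliferation of vascular cells in pulmonary hypertension. The target messenger RNAs were not measured here.

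The strands are shown first because the values turn on which of them share a seed. Sequences are from RefSeq on GRCm38.p6, written 5′ to 3′ with the seed in capitals. Of the 5 members 4 had an entry, and the one without was miR-301b-3p. The 3 that carry the family seed, and then miR-130b-5p, were as follows.
miR-130a-3p: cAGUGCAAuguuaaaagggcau
miR-130b-3p: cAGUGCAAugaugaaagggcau
miR-301a-3p: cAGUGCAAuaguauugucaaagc
miR-130b-5p: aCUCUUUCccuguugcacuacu
In sums, miR-301b-3p is counted with the family-seed strands by its name. The 3 shown were identical over their first 9 bases. Counting from the 5′ end, miR-130a-3p and miR-130b-3p differed at 2 of 22 bases, U11A and A13G, and miR-130a-3p and miR-301a-3p at 10 of 22. Strands this alike may exchange reads if mismatches were allowed, so a low count on miR-130b-3p beside the abundant miR-130a-3p is uncertain.

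The hairpins lie at 3 loci of GRCm38, the assembly also named in the submitters' processing notes as mm10. Mir130a is at chr2:84741115-84741178 on the minus strand, outside any GENCODE M21 host gene, with Gm19426 on the same strand as the nearest protein-coding gene, 990 bases away. Mir301 is at chr11:87113004-87113089 on the plus strand, in an intron of Ska2, which encodes a spindle and kinetochore protein. Mir130b at chr16:17124061-17124142 and Mir301b at chr16:17124400-17124496 are 257 bases apart on the minus strand, both in an intron of the protein-coding gene 2610318N02Rik. The family thus has a single hairpin at 2 of the loci and a pair of hairpins at the third.

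The family was lower in the db/db library, and nearly all of it was miR-130a-3p. The db/db library held 24295112 microRNA counts over 833 detected names and the db/+ library 25915732 over 881. Levels are counts per 1e6 microRNA counts (CPM) and ratios are db/db over db/+, with 95% intervals for counting error only. Reads are PCR copies and not independent, so these intervals may be too narrow even for counting error. With 1 library per group they omit variation between mice or cultures, and no p-value could be had. The 4 family-seed strands summed to 5189 counts in db/db and 8194 in db/+, or 214 CPM (95% interval 208 to 219) in db/db and 316 CPM (309 to 323) in db/+. The ratio of the sum was 0.676 (0.652 to 0.699). Without miR-130a-3p the sum of the other 3 had a ratio of 0.635 (0.532 to 0.757).

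All 5 members had a ratio below 1, and the interval of 4 lay below 1. Under each of 5 other scalings the interval of 3 lay below 1, but the share over all names is not reported here for those. The median log2 ratio of the 5 was -0.56 (0.5 counts added), beside -0.14 over the 356 microRNAs that reached 50 counts in either library and -0.15 over all 967 detected. Ratios below 1 were common among the 356, at 57.0%, so the direction alone does not set apart the 3 members among them. The share over all detected names, which include the other members, is not reported here. Scaled by total counts, an interval below 1 was found for 20.8% of all 967 detected names, and for 44.1% of the 356, against 3 of the 3 members among them. Abundant names have narrow intervals, so this share rises with depth. By size, 0 of the 3 members past 50 counts were at least 2-fold lower, against 13.5% of all 356, and 1 was at least 1.5-fold lower, against 24.2%. At least 2-fold higher were 0 of the 3, against 4.49% of all.

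**Figure D1:**
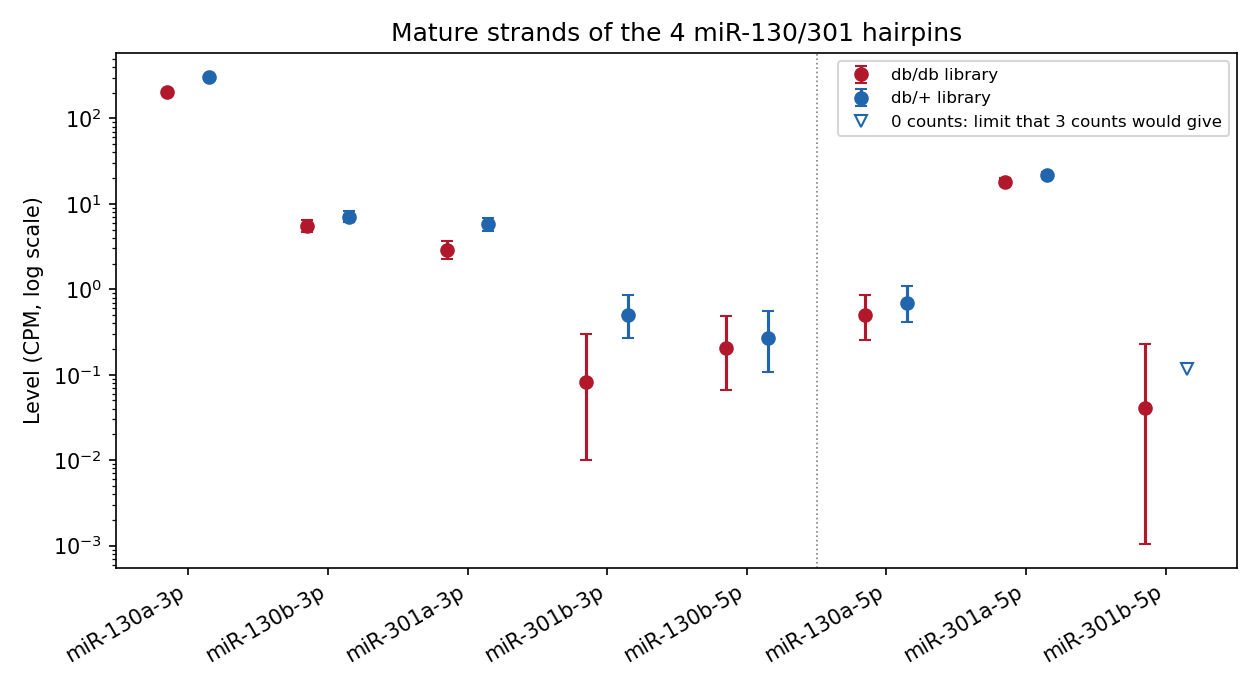
Level of each mature strand of the family hairpins in CPM (log scale) in the db/db library (red, left of each pair) and the db/+ library (blue, right); points are 1 library each, bars are exact Poisson 95% intervals, and the open triangle marks the limit that 3 counts would give where 0 were counted. Strands left of the dotted line are the family members; miR-130a-3p stands far above the others, at 205 CPM in db/db and 303 CPM in db/+.

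The most abundant member was miR-130a-3p, a strand known to promote vessel growth and smooth muscle proliferation. It had 4983 counts in db/db and 7848 in db/+, which is 205 CPM (199 to 211) in db/db and 303 CPM (296 to 310) in db/+. The ratio was 0.677 (0.654 to 0.702), the log2 ratio -0.56. It ranked 68th of all names by counts in db/db and 56th in db/+. Its ratio was the 89th lowest of the 356. It made up 96.0% (95.5 to 96.5) of the family-seed counts in db/db and 95.8% (95.3 to 96.2) in db/+, intervals that overlap.

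The partner from chromosome 16, miR-130b-3p, is a close copy of it and is known from adipocytes, where it represses PPARγ. It had 134 counts in db/db (5.52 CPM) and 184 in db/+ (7.10 CPM), a ratio of 0.777 (0.617 to 0.976). Under each of 5 other scalings the ratio was 0.809 to 0.831 and its interval held 1. Among the members past 50 counts it was thus the nearest to equal levels.

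A lower ratio was measured for miR-301a-3p, a strand known for growth promotion in tumour cells. It had 70 counts in db/db (2.88 CPM) and 149 in db/+ (5.75 CPM), a ratio of 0.501 (0.372 to 0.670), which is -0.99 on the log2 scale. The value lay just short of the 2-fold limit, and its counting interval spans that limit. Its ratio was the 51st lowest of the 356.

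Near the limit of detection were miR-301b-3p and miR-130b-5p. For miR-301b-3p there were 2 counts in db/db (0.0823 CPM) and 13 in db/+ (0.502 CPM). Its ratio of 0.164 (0.0180 to 0.725) was the lowest of the family, but rested on these few reads. For miR-130b-5p, the strand opposite miR-130b-3p, there were 5 counts in db/db (0.206 CPM) and 7 in db/+ (0.270 CPM), a ratio of 0.762 (0.191 to 2.79). This interval held 1 and was wide, so at this depth no difference in miR-130b-5p was established.

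Proportions among the members were compared within each library, which does not depend on scaling. Of the 6 pairs of family-seed strands, 3 had a ratio of ratios whose counting interval excluded 1. There were 1.91 reads of miR-130b-3p for each read of miR-301a-3p in db/db and 1.23 in db/+, a ratio of ratios of 1.55 (1.06 to 2.26). For miR-130a-3p over miR-301a-3p the proportions were 71.2 in db/db and 52.7 in db/+, a ratio of ratios of 1.35 (1.01 to 1.83). The neighbouring hairpins gave 67 reads of miR-130b-3p for each read of miR-301b-3p in db/db and 14.2 in db/+, 4.73 (1.04 to 43.7), on the 2 and 13 counts above. All 3 intervals come close to 1 and were not adjusted for the 6 pairs, so unequal differences among the members were not established. For miR-130a-3p over miR-130b-3p the interval held 1, at 0.872 (0.692 to 1.10).

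**Figure D2:**
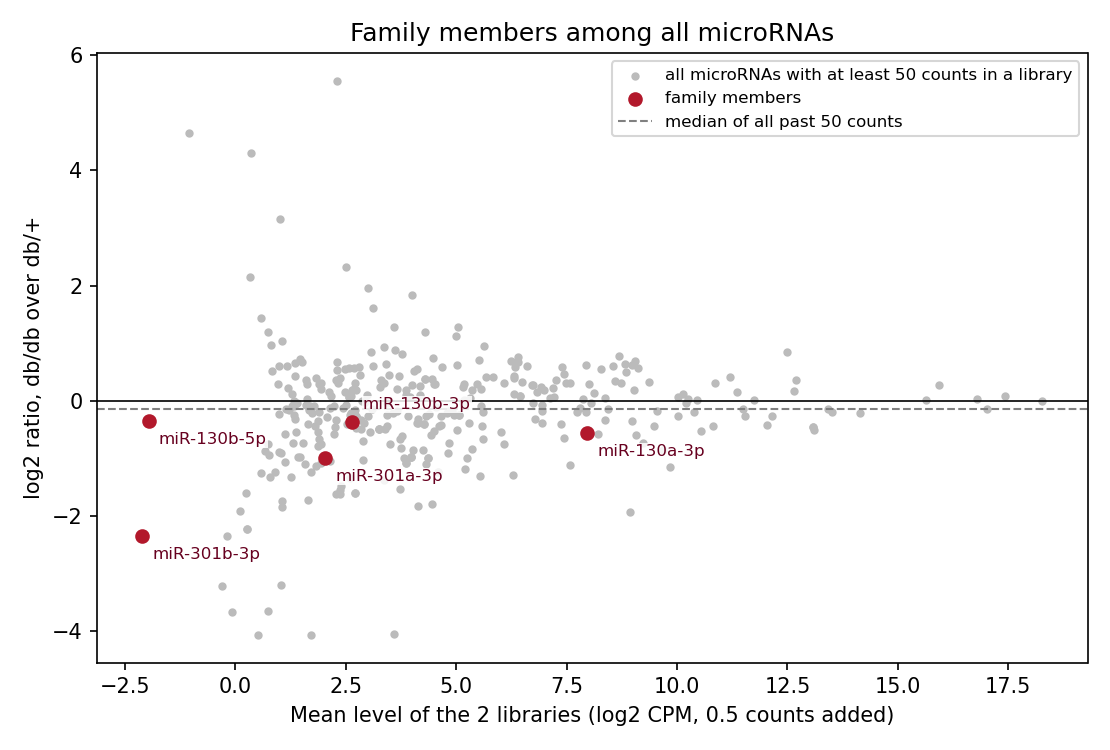
Log2 ratio of db/db over db/+ against the mean log2 CPM of both libraries (0.5 counts added) for the 356 microRNAs that reached 50 counts in either library (grey) and the 5 family members (red); miR-301b-3p and miR-130b-5p are below 50 counts. All 5 members lie below the solid line at 0 and below the dashed line at the median of -0.14, inside the cloud of the other microRNAs of like level or, for the 2 rarest, left of it.

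Arm usage set miR-301a apart from the other hairpins of the family. Its 5p strand, which carries another seed, was the more abundant one in both libraries, while miR-130a and miR-130b gave nearly all reads from the 3p arm. The hairpins of miR-301a, whose symbol is Mir301, and of miR-130a are shown with both mature strands in capitals, the 5p strand first.
Mir301: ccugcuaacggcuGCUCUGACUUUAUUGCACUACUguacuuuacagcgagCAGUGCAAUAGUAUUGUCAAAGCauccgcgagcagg
Mir130a: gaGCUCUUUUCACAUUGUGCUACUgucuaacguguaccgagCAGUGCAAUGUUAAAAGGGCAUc
The 5p strands, with their seeds in capitals, share no common seed across the family, but miR-301a-5p and miR-301b-5p have the same one.
miR-301a-5p: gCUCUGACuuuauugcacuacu
miR-301b-5p: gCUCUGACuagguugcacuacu
miR-130a-5p: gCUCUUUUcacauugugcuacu
All 4 5p strands, miR-130b-5p included, end in the same 5 bases.

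The 5p strand of miR-301a had 442 counts in db/db (18.2 CPM) and 565 in db/+ (21.8 CPM), several times the counts of its 3p strand. Its ratio of 0.834 (0.735 to 0.947) was nearer to 1 than that of miR-301a-3p, and its interval held 1 under 4 of 5 other scalings. The 5p share of miR-301a reads was 86.3% (83.0 to 89.2) of 512 in db/db and 79.1% (76.0 to 82.1) of 714 in db/+, and these intervals did not overlap. Put as a ratio of ratios, reads of the 3p over the 5p strand were 0.601 (0.434 to 0.827) times as frequent in db/db as in db/+. The difference of 7.20 percentage points compares with a median absolute difference of 0.917 points over 204 hairpins with at least 50 counts in each library, and 33 of them had a larger one. Intervals were apart for 53 of the 204 hairpins, or 26.0%.

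For miR-130a and miR-130b nearly all reads were on the 3p arm, and intervals of the 2 libraries overlapped. The 5p share of miR-130a was 0.240% (0.124 to 0.419) of 4995 counts in db/db and 0.229% (0.136 to 0.361) of 7866 in db/+. For miR-130b it was 3.60% (1.18 to 8.19) of 139 counts in db/db and 3.66% (1.49 to 7.41) of 191 in db/+. The miR-130a-5p strand had 12 counts in db/db and 18 in db/+, a ratio of 0.711 (0.312 to 1.56). Only 1 read of miR-301b-5p was counted in db/db and 0 in db/+, where 3 counts, taken as the most that 0 allows, are 0.116 CPM. Its hairpin had too few reads to show an arm preference in db/db, with a 5p share of 33.3% (0.840 to 90.6) of 3 counts in db/db and 0% (0 to 24.7) of 13 in db/+.

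**Figure D3:**
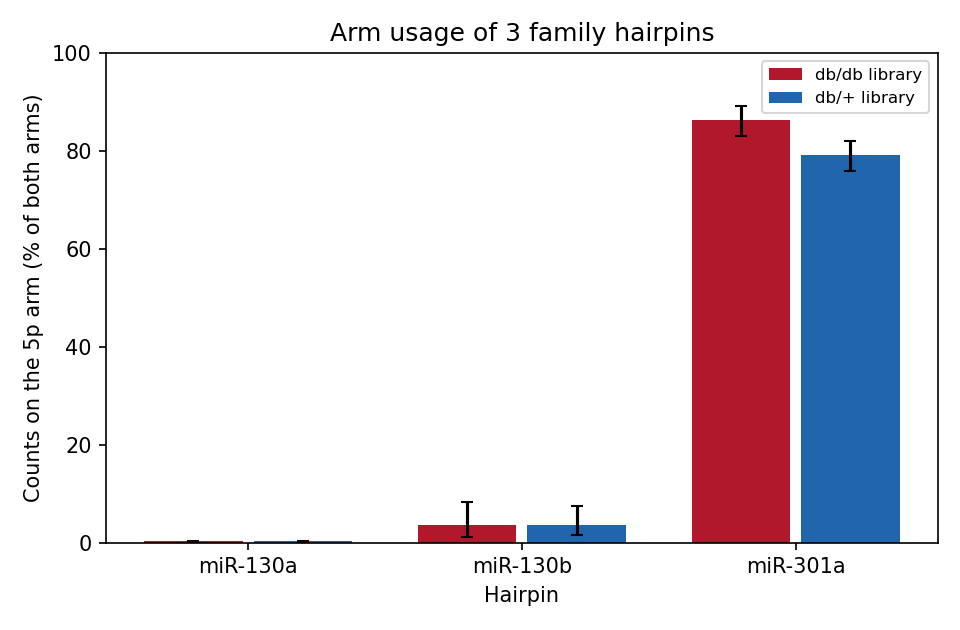
Share of each hairpin's counts on its 5p arm, in percent, in the db/db library (red, left bar of each pair) and the db/+ library (blue, right bar), with exact binomial 95% intervals for counting error. The 5p arm took 86.3% of miR-301a counts in db/db and 79.1% in db/+, but under 4% in miR-130a and miR-130b.

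The family seed was carried by few other names, and these were not seen. RefSeq sequences were matched to 1623 of the 1909 names, and 4 more of them had the seed.
miR-130c: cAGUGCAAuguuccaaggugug
miR-721: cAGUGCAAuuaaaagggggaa
miR-6341: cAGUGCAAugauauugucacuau
miR-6389: cAGUGCAAuguuaaacuuugc
Each of these had 0 counts in both libraries, which allows up to 0.123 CPM in db/db and 0.116 CPM in db/+. Among the names with a sequence, all counts with this seed were thus on family members, and mostly on miR-130a-3p. The seeds of the other 286 names, miR-301b-3p included, were not checked. Added up by seed over all matched names, the pool ranked 40th in db/db and 34th in db/+. Its ratio of 0.676 compares with a median of 0.940 over 232 seeds with at least 50 counts in a library, of which 53 had a lower ratio.

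The miR-148 and miR-152 family carries bases 1 to 7 of the 3p strands above, 1 position further on. It thus holds all but the last base of the family seed, and so overlaps in the targets it can pair with. It is shown with its own seed in capitals, which the 3p strands above hold at bases 1 to 7.
miR-148a-3p: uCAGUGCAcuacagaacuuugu
miR-148b-3p: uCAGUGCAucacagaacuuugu
miR-152-3p: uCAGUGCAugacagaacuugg
These did not follow the strands of the miR-130 and miR-301 family as a group. Of the 3, all past 50 counts, 2 ratios exceeded 1, of which 1 reached 2-fold, 1 was below 1 and 0 were 2-fold lower. Over all 356, 57.0% of ratios were below 1, 4.49% reached 2-fold upward and 13.5% downward. The median log2 ratio of the 3 was 0.10, beside -0.14 over the 356. Of the 3 strands, the one past 2-fold was miR-148a-3p. It had 51.3 CPM in db/db and 21.1 CPM in db/+, a ratio of 2.43 (2.19 to 2.69). Far more abundant was miR-152-3p, at 1238 CPM in db/db and 1421 CPM in db/+, a ratio of 0.871 (0.858 to 0.884). For miR-148b-3p the ratio of 1.07 (0.925 to 1.24) had an interval that held 1. Summed, the 3 had 1304 CPM in db/db and 1457 CPM in db/+, above the 214 CPM in db/db and 316 CPM in db/+ of the family-seed strands.

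In pulmonary vessels the family has been described as acting through PPARγ on miR-204 in smooth muscle cells and on miR-424 (named miR-322 in the mouse) and miR-503 in endothelial cells. In these aortic cells miR-204-5p, a restraint on proliferation in that circuit, had 0 counts in both libraries. The growth-restraining strand miR-322-5p had 14.1 CPM in db/db and 25.5 CPM in db/+, a ratio of 0.554 (0.485 to 0.633). Its cluster neighbour miR-503-5p had 334.8 CPM in db/db and 323 CPM in db/+, a ratio of 1.04 (1.01 to 1.07). Of the 3 names 2 were past 50 counts, 1 with a ratio above 1 and 1 below. Of these 2, 0 reached 2-fold either way, beside 4.49% upward and 13.5% downward of all 356.

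Among microRNAs known for smooth muscle growth and state, 11 of 12 were past 50 counts, 4 with a ratio above 1 and 7 with one below (5 above and 6 below under each of the 5 other scalings, where miR-143-3p lies above 1). Of these 11, 1 passed 2-fold upward and 0 downward, beside 4.49% upward and 13.5% downward of all 356. The median log2 ratio of the list was -0.13. Over the 356 it was -0.14, and 57.0% of their ratios were below 1. The growth-promoting miR-21a-5p had 7399 CPM in db/db and 10479 CPM in db/+, a ratio of 0.706 (0.702 to 0.710), and miR-26a-5p had 0.661 (0.645 to 0.677). These were the 2 ratios nearest to the 0.677 of miR-130a-3p. The proliferative pair of miR-221-3p and miR-222-3p had 0.906 (0.897 to 0.915) and 1.09 (1.07 to 1.10). Below 1 were also miR-24-3p at 0.836, miR-31-5p at 0.911, miR-145a-5p at 0.795 and miR-143-3p at 0.971, while miR-125b-5p had 1.01. The inflammation brake miR-146a-5p was the one past 2-fold, with 308 counts in db/db and 65 in db/+, a ratio of 5.05 (3.86 to 6.71). Muscle-specific miR-1a-3p had 1.93 (1.78 to 2.09), and miR-133a-3p had 1 count in db/db and 1 in db/+.

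**Figure D4:**
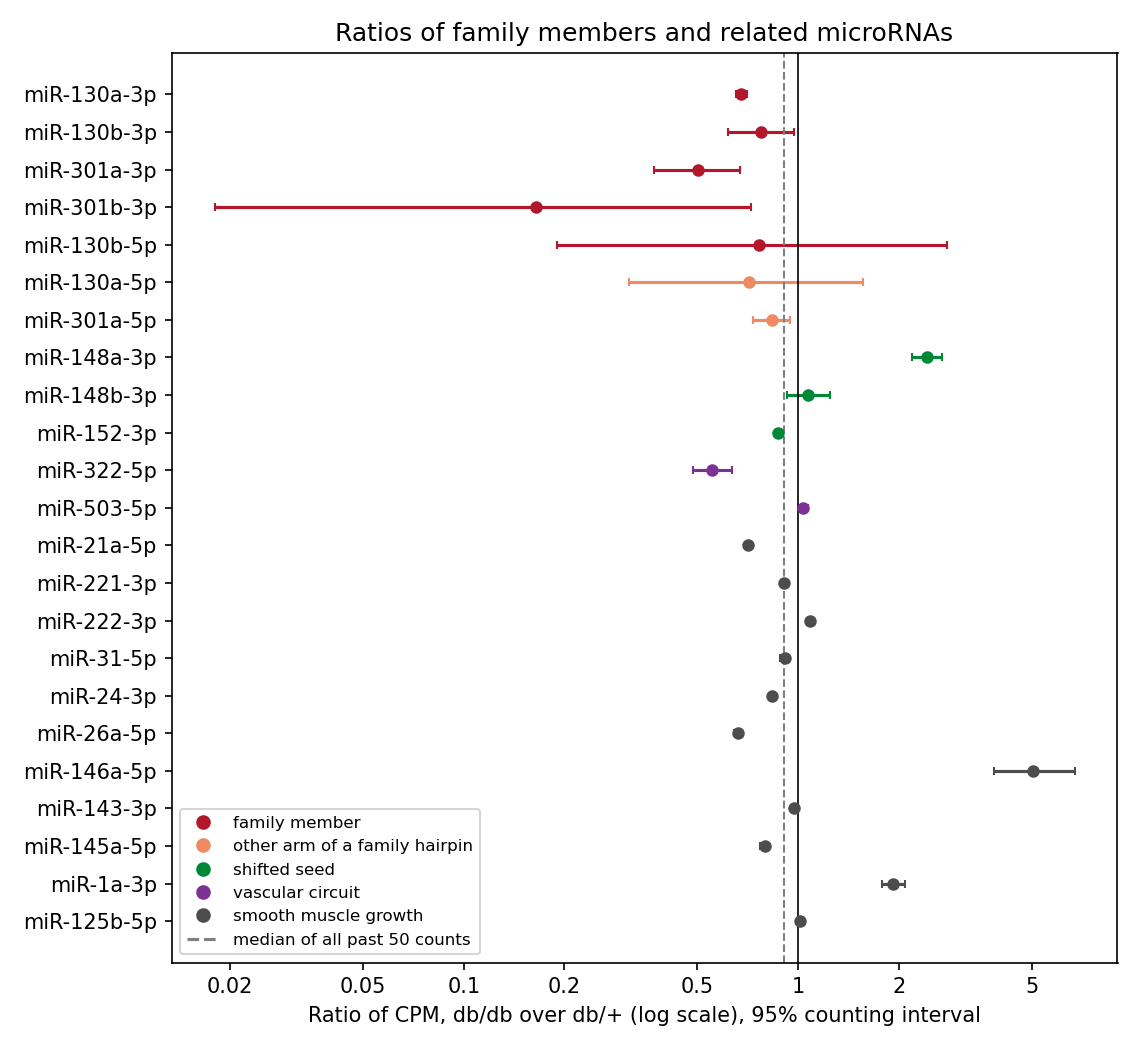
Ratio of CPM, db/db over db/+ (log scale), with exact 95% counting intervals, for the family members (red), the other arms of their hairpins (orange), strands with the shifted seed (green), the circuit partners (purple) and smooth muscle growth microRNAs (grey); the dashed line is the median of 0.908 over the 356 microRNAs with at least 50 counts. All family points lie left of 1, whereas miR-148a-3p and miR-146a-5p lie right of 2. Not drawn are miR-301b-5p, which had 1 count in db/db and 0 in db/+, and list names below 50 counts in both libraries.

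Some microRNAs were close to the family strands in level in both libraries, by distance in log2 CPM over the 2 libraries. Nearest to miR-130a-3p was miR-29b-3p, with 211 CPM in db/db and 299.9 CPM in db/+ (distance 0.040), then miR-101b-3p (0.261) and miR-22-3p (0.340), at ratios of 0.702, 0.872 and 0.671. For miR-130b-3p the nearest were miR-872-3p (0.048), miR-667-3p (0.074) and miR-467a-5p (0.102), at ratios of 0.787, 0.822 and 0.858. For miR-301a-3p they were miR-34c-3p (0.159), miR-29b-1-5p (0.162) and miR-344d-3p (0.211), at ratios of 0.481, 0.470 and 0.595. Names chosen for like levels in both libraries have like ratios by construction, so the ratios add nothing to the distance.

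Markers of smooth muscle were high in both libraries. The 4 strands of miR-143 and miR-145a summed to 1567 CPM in db/db and 1656 CPM in db/+, with 0 of the 4 at 0 counts. Endothelial cells also express miR-130a, and both endothelial markers summed to 2.92 CPM in db/db and 0.270 CPM in db/+. Defining miR-126a-3p had 13 counts in db/db and 5 in db/+, a ratio of 2.77 (0.928 to 9.94) whose interval held 1. For miR-126a-5p there were 58 counts in db/db and 2 in db/+, a ratio of 30.9 (8.19 to 261). The 6 blood markers summed to 6.75 CPM in db/db and 6.48 CPM in db/+, with miR-223-3p and miR-142a-3p at 0 in both. Most of that sum was miR-486a-5p alone, with 147 of 164 counts in db/db and 150 of 168 in db/+. The 6 epithelial markers summed to 0.906 CPM in db/db and 0.270 CPM in db/+. The part of other cell types in the family's values was not tested.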

How the data were processed

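Small RNA libraries of cultured aortic smooth muscle cells, 1 from db/db and 1 from db/+ mice, were compared. The authors deposited, per the file headers, the raw count of reads of 1909 mature microRNAs and a TMM-normalized value for each. TMM is a scaling that takes most features as unchanged. The deposited normalized reads are whole numbers, were treated as a score, and entered 1 alternative only. Novoalign, edgeR and mm10 are named, without versions, in the submitters' processing notes. Trimming, mismatches and the counting of reads that match several names are not given in the sources used here.

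Counts were divided by the total microRNA counts of the library (24295112 in db/db, 25915732 in db/+). Ratios carry exact conditional (Clopper-Pearson) intervals, CPM exact Poisson intervals and shares exact binomial (Clopper-Pearson) intervals, computed with SciPy 1.17.1. They cover counting error only. With 1 library per group edgeR's quasi-likelihood test could not be fitted. Size was judged at 2-fold among the microRNAs that reached 50 counts in either library. Alternatives were scalings by edgeR 4.0.16 (TMM, upper quartile), DESeq2 1.42.0, the total without the 10 most abundant names and the deposited reads, and other minimums, limits and added counts.

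The rule named every member, the other arms of their hairpins, all names with the same seed, the 3 nearest microRNAs to each family-seed strand past 50 counts, and the lists. Members and lists were chosen with earlier results of these data known. Arm shares other than that of miR-130b, and the sum without miR-130a-3p, were added after the counts were seen. Hairpins were placed with GENCODE M21 and RefSeq. The computation was tested on simulated counts.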

Additional observations from a re-analysis of the deposited data

How the results depend on the processing

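Over all alternatives no ratio of a member crossed 1. Other scaling factors shifted log2 ratios upward by 0.059 to 0.097, but the deposited reads are rounded, which moves low counts otherwise (0.714 for miR-130b-5p and 0.167 for miR-301b-3p). The ratio of miR-130a-3p was then 0.720 with edgeR TMM and the deposited reads, 0.721 with DESeq2, 0.724 with upper quartile and 0.706 without the 10 most abundant names, and that of the family-seed sum 0.718 (TMM, deposited), 0.719, 0.722 and 0.704. Without miR-130a-3p the sum had 0.635. The median log2 ratio of the 5 members was -0.47 with TMM, deposited reads, DESeq2 and upper quartile (-0.475, -0.475, -0.472 and -0.465) and -0.50 without the 10 most abundant. Ratios of miR-301a-3p were 0.522 to 0.536. With no minimum, 1 of the 5 members (miR-301b-3p) was at least 2-fold lower, beside 259 of all 967 detected names. It was also the only member called lower with a minimum of 10 counts, where the share over all names is not reported here. At 1.5-fold, 1 of the 3 members past 50 counts was lower (miR-301a-3p), beside 24.2% of all 356. Counts over all microRNAs moved with the limits by construction, to 46 higher and 91 lower at 10 counts, 171 and 259 with no minimum, and 48 and 86 at 1.5-fold. The smooth muscle growth median was -0.088 with no minimum, -0.046 with TMM and deposited reads, -0.044 with DESeq2, -0.037 with upper quartile and -0.075 without the 10 most abundant. A scaling factor moves the median over all 356 by the same amount. Apart from rounding in the deposited reads, the family and list medians thus keep their distance from it. Under each of the 5 scalings 2 list members were at least 2-fold higher, with miR-1a-3p at 2.01 to 2.06. Of all names past 50 counts, 18 or 19 were. The other 143 alternative values stayed within their counting interval or 1.5-fold. No paired analysis was possible because there is only 1 library per group, and for the same reason no library could be left out. Depth limits miR-301b-3p, miR-130b-5p and the rare 5p strands to a few reads.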
